A study of Mus musculus with 2 samples.

Results

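Genes of IL-6, IL-1 and STAT3 signalling in the liver were examined for their response to loss of Lpcat3, a lysophospholipid acyltransferase, from hepatocytes. They are 10 genes taken from a named list of cytokine receptors, STAT3, C/EBP factors and feedback genes (Il6ra, Il6st, Osmr, Il1r1, Il1rap, Stat3, Cebpb, Cebpd, Socs3 and Steap4), matched by symbol and gene ID. All probe sets annotated to them were used, 29 of the 45037 on the array that are not controls, and 10 of 18193 genes with a probe set. Total liver RNA came from 12-week-old male mice fed chow and fasted for 6 hr. Flox/Flox mice carried homozygous floxed alleles (Lpcat3fl/fl) and no Cre, and L-Lpcat3 KO mice carried the same alleles with the Albumin-Cre transgene, whose albumin promoter drives Cre in hepatocytes. Other liver cells keep their Lpcat3, and the transgene and the deletion cannot be told apart because no mice with Cre and without floxed alleles were measured. RNA of 5 mice was pooled for each genotype and hybridized to 1 array, so there are no replicates. Every ratio below is 1 difference between 2 pools, with no p-value and no measure of variation among mice.

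IL-6 binds its receptor IL-6Rα and recruits gp130, the product of Il6st, whose associated JAK kinases phosphorylate STAT3. STAT3 then enters the nucleus and, in hepatocytes, turns on acute-phase genes together with C/EBPβ and C/EBPδ. Oncostatin M uses gp130 with its own receptor, OSMR. IL-1 binds IL-1R1 and the accessory protein IL1RAP and signals through MyD88 to NF-κB, which acts on many of the same genes. SOCS3, itself a STAT3 target, binds gp130 and the JAK kinases and ends the signal. Much of this signalling runs through phosphorylation, which RNA does not show.

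The transcripts of the receptors and of both C/EBP factors were close in the 2 pools, and Steap4 was lower in L-Lpcat3 KO by both of its probe sets. Signals are MAS5 intensities, a background-corrected summary of a probe set in arbitrary units. A floor was set at the median signal over both arrays (76.4), to which lower signals were raised, and a probe set counted as measured when it exceeded the floor in either pool. Of the 29 member probe sets, 25 were measured: 24 exceeded the floor in both pools and 1 did so in L-Lpcat3 KO alone. The other 4, of Osmr, Il1r1 and Il1rap, lay below the floor in both pools at signals of 39.4 or less. A reduction of 1.5-fold or more was seen in 2 member probe sets (8.0%), against 3.71% of all 24186 measured probe sets, and 1 was higher by as much (4.0%), against 4.79%. At the rates of all probe sets, 25 would hold 0.927 lower and 1.20 higher, so neither count stands out. At 2-fold there was 1 member probe set in each direction, where 0.554% of all measured probe sets were lower and 0.649% higher. The median log2 ratio (L-Lpcat3 KO over Flox/Flox) was -0.03 over the 25 member probe sets and 0.01 over all measured ones.

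How far a probe set may stray depends on its signal. Among measured probe sets with a geometric mean signal above 585, 98.3% lay within 1.5-fold, and the 5th to 95th percentiles of the log2 ratio ran from -0.32 to 0.31. Between 127 and 585 these percentiles were -0.56 and 0.60, and below 127 they were -0.66 and 0.73. By definition, each range leaves out 5% of the probe sets of its band at either end. Of the 25 member probe sets, 21 lay inside the range of their own signal band. The other 4 were both probe sets of Steap4 and 2 of Stat3, which went in opposite directions.

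**Figure D1:**
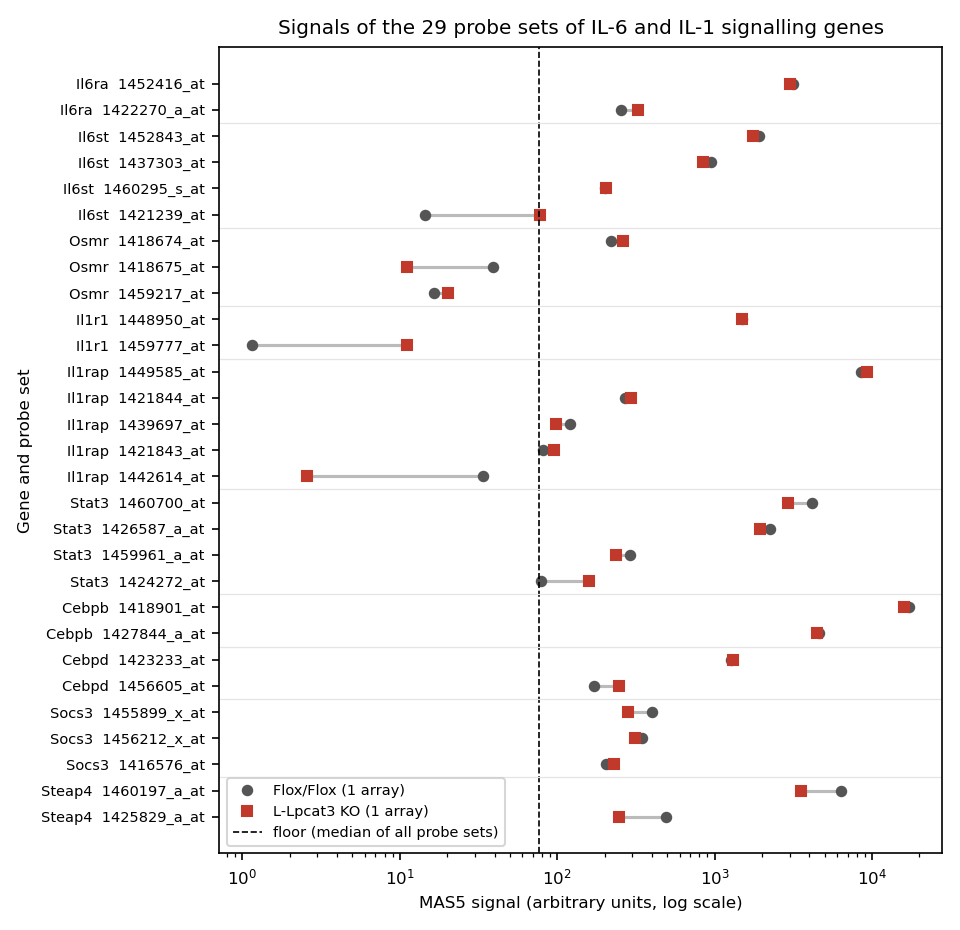
MAS5 signals (x axis, arbitrary units, log scale) of the 29 probe sets of the 10 genes (y axis) in the Flox/Flox pool (grey circles) and the L-Lpcat3 KO pool (red squares), 1 array each, with the floor of 76.4 as a dashed line. The symbols nearly coincide for most receptor and C/EBP probe sets, while both Steap4 probe sets are lower in L-Lpcat3 KO (6345 against 3548, and 494 against 247).

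Among the receptors, Il6ra, which encodes the ligand-binding IL-6Rα, gave 3157 in the Flox/Flox pool and 3007 in the L-Lpcat3 KO pool on its brightest probe set. The log2 ratio was -0.07, and the dimmer probe set gave 0.36 (255 against 327). Il6st, encoding the shared subunit gp130, read 1917 in Flox/Flox and 1743 in the KO pool (-0.14). Its second probe set gave -0.17 (955 against 847) and the next 0.02 (201 against 204). The last read 14.6 and 78.3, barely above the floor in L-Lpcat3 KO, and is at least 1.03-fold higher. Across the 3 probe sets of Il6st above the floor in both pools, the ratios differed by little and stayed well within 1.5-fold. Osmr, the oncostatin M receptor, read 221 in Flox/Flox and 264 in the KO pool (0.26) by the 1 probe set of 3 that was measured.

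The IL-1 receptor chains were likewise close. Il1r1, the signalling receptor for IL-1, was 1491 and 1504 (0.01). Il1rap, its accessory protein, read 8586 in Flox/Flox and 9355 in the KO pool (0.12), with a second probe set at 0.13 (270 against 296). The remaining measured probe sets of Il1rap, with signals between 80.8 and 120, gave 0.24 and -0.28 and so differed in sign. By brightest probe set, all 5 receptor genes lay within 1.5-fold, from -0.14 (Il6st) to 0.26 (Osmr), with a median of 0.01. Receptor RNA in whole liver comes from hepatocytes and other cells, and fewer cells of a type and less RNA per cell cannot be told apart in these pools.

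Stat3, the transcription factor on which the IL-6 family converges, read 4190 in Flox/Flox and 2933 in the KO pool on its brightest probe set, a 1.43-fold lower signal (-0.51). This was below the 5th percentile of its signal band, in which 1.38% of measured probe sets had a lower ratio. The next probe sets gave smaller differences in the same direction. One read 2238 in Flox/Flox and 1932 in the KO pool (-0.21), and the other 292 and 235.3 (-0.31). The dimmest probe set was 2.02-fold higher, at 79.1 in Flox/Flox, just above the floor, and 160 in the KO pool (1.01). The mean over the 4 probe sets was thus -0.01, against -0.51 by the brightest, and the ratios of Stat3 spanned 1.53 on the log2 scale, the widest span of any member. Stat3 did not reach 1.5-fold lower by any probe set, and its direction depends on which probe set is read.

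C/EBPβ, first described as the nuclear factor of IL-6, and C/EBPδ, an early acute-phase factor, bind the promoters of acute-phase genes. Cebpb read 17247 in Flox/Flox and 16056 in the KO pool (-0.10), and 4578 and 4475 (-0.03) by its other probe set. Cebpd was 1268 and 1309 (0.05). Its dimmer probe set read 171 in Flox/Flox and 248 in the KO pool, 1.45-fold higher (0.53) and inside the range of its signal band. Neither factor was past 1.5-fold by any probe set.

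Socs3, the feedback inhibitor of gp130 signalling, gave no single direction. Its brightest probe set read 398 in Flox/Flox and 282 in the KO pool, 1.41-fold lower (-0.50). The second was 347 and 314 (-0.15), and the last 203 and 229 (0.17). The first and second carry the suffix _x_at, which marks probes that may also bind other transcripts, and without such probe sets the value of Socs3 is 0.17. All 3 lay inside the range of their signal band.

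Steap4 encodes a metalloreductase of the STEAP family, which reduces iron and copper, and its transcript is known to be induced by IL-6 and other inflammatory cytokines. Steap4 read 6345 in Flox/Flox and 3548 in the KO pool on its brightest probe set, 1.79-fold lower (-0.84). Only 0.278% of the 9008 measured probe sets of its signal band had a lower ratio. The other probe set read 494 in Flox/Flox and 247 in the KO pool, 2.0-fold lower (-1.0), with 0.622% of its band lower. The ratios of the 2 probe sets differed by 0.16, against a median difference of 0.21 between the 2 brightest measured probe sets of 5167 genes (90th percentile 0.66). Both were read from the same pools and are not replicates of the difference. By brightest probe set, Steap4 was the 1 member gene of 10 past 1.5-fold, where 3.14% of 12061 measured genes were at least 1.5-fold lower and 4.0% higher.

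**Figure D2:**
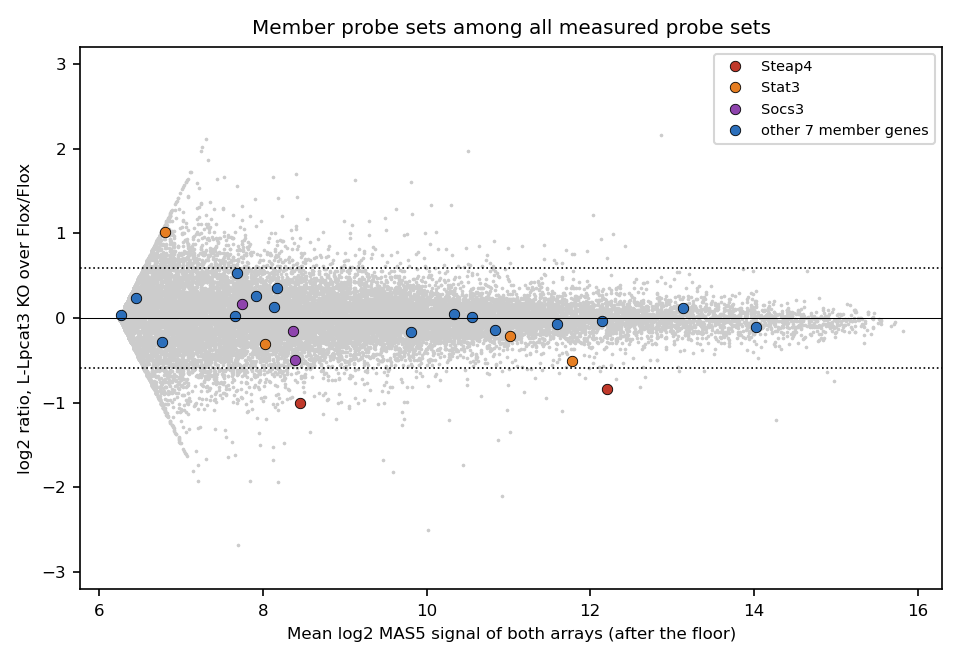
Difference in log2 signal between the KO and Flox/Flox pools (y axis) plotted by mean log2 signal (x axis) for all 24186 measured probe sets (grey) and the 25 measured member probe sets (coloured); dotted lines mark 1.5-fold. Steap4 (-0.84 and -1.0) lies among the lowest probe sets of like signal, the brightest Stat3 probe set (-0.51) lies at its lower edge and the dimmest (1.01) at the upper edge of the wedge near the floor.

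The sequences before the annotated start sites of Steap4 and Socs3 are shown because they were the members with a STAT motif there. Windows of 250 bases were taken from RefSeq on GRCm38.p6 and were matched for 9 of the 10 members, all but Cebpd. The letters searched were TTCNNNGAA for STAT, which reads the same on both strands, and TTGCNNAA for C/EBP, on both strands, along with the 10-base NF-κB consensus on both strands. In capitals are the matches. Steap4 (chr5:7960222-7960471, + strand) holds, from left to right, 2 NF-κB matches, 1 STAT and 1 C/EBP match. Socs3 (chr11:117969367-117969616, - strand) holds 1 STAT match. None of these matches overlap.
Steap4: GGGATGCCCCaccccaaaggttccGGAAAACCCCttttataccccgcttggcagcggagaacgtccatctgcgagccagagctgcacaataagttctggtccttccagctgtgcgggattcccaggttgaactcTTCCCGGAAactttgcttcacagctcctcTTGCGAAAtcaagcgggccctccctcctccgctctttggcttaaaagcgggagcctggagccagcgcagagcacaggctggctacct
Socs3: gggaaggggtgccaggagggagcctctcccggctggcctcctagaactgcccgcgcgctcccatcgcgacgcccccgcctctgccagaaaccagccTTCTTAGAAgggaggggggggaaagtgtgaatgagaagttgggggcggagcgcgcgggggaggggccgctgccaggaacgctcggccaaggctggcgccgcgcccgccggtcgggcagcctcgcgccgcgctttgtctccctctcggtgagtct

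Counted from the annotated start, the STAT match begins at -116 in Steap4 and at -154 in Socs3. Over all 27025 genes with such windows, 8.13% hold a STAT match, 10.8% a C/EBP match and 4.46% an NF-κB match. Besides Steap4, Il1r1 holds 1 C/EBP match in one of its windows and 1 NF-κB match in the other, and the windows of Il6ra, Il6st, Osmr, Il1rap, Stat3 and Cebpb hold none of the 3. A match is a string of letters, not a measured binding site. Of the members with a STAT match, Steap4 was lower by both probe sets and Socs3 differed in sign among its probe sets.

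**Figure D3:**
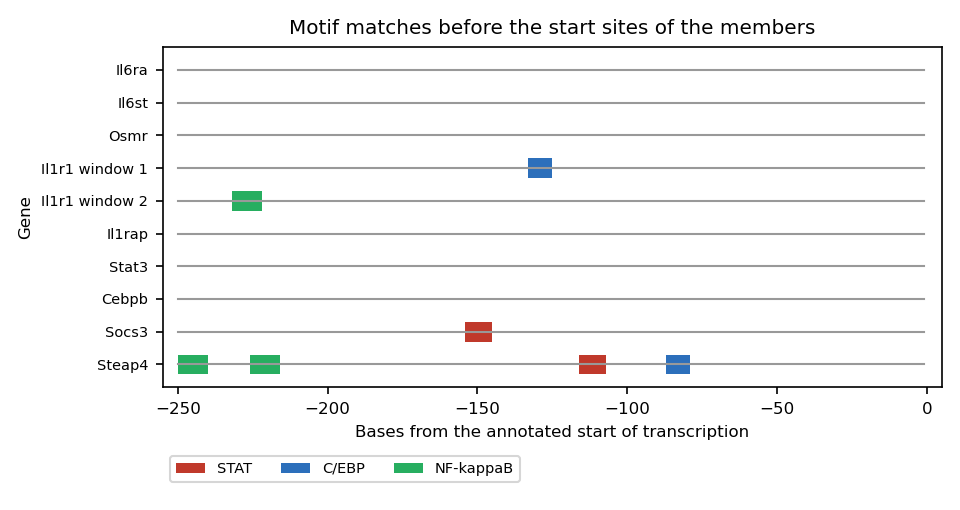
Matches of the STAT (red), C/EBP (blue) and NF-κB (green) motifs (bars) in the 250 bases before each annotated start (x axis, bases from the start) for the 9 members with a window (y axis; Il1r1 has 2 windows). Steap4 carries all 3 motifs, Socs3 the STAT motif alone.

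Other genes of the pathway were followed through lists of ligands, further receptors, signal transducers, inhibitors and transcription factors. Over these 5 lists, 61 of 69 measured genes lay within 1.5-fold, 7 were higher in L-Lpcat3 KO (10.1%, against 4.0% of all measured genes) and 1 was lower (1.45%, against 3.14%), with a median of 0.02 (all measured genes 0.00). The count of higher genes depends on the floor, with 2 at the 75th percentile, where far fewer of all measured genes were higher as well. Of the ligands, 12 of 15 had a probe set and 8 were measured. Il6 itself did not reach the floor in either pool (17.8 and 4.70), nor did Osm (15.3 and 4.62), Il11 or Tnf; these 4 are named for their role, after their values were seen. Il18 (0.07) and Ctf1 (0.05), the brightest, hardly differed. Il1b read 77.4 in Flox/Flox, just above the floor, and 149 in the KO pool, 1.92-fold higher, and was the 1 ligand past 1.5-fold. It lies in the dimmest signal band, where 9.67% of probe sets were at least 1.5-fold higher.

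Of 10 measured other receptors, 9 lay within 1.5-fold. Lifr, which pairs with gp130 as the receptor of leukaemia inhibitory factor, read 11231 in Flox/Flox and 8467 in the KO pool, 1.33-fold lower (-0.41). The other probe sets gave -0.09 (3434 against 3224) and -0.68 (150 against 93.1), so all 3 were below 0, with sizes that differed widely. Tnfrsf1a, the main TNF receptor, had -0.22 (2219 against 1900). Il22ra1, a subunit of the IL-22 receptor, was at the floor in Flox/Flox (63.1) and 128 in the KO pool, at least 1.68-fold higher.

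All 21 measured signal transducers lay within 1.5-fold, from -0.45 to 0.36. The brightest were the p38 kinase gene Mapk14 (0.04) and the TAK1-binding adaptor Tab2 (-0.05). The JAK kinases and Myd88, named for their role after their values were seen, had log2 ratios of -0.05 (Jak1), 0.02 (Jak2), 0.07 (Tyk2) and -0.04 (Myd88). Of 17 measured inhibitors, 15 lay within 1.5-fold. Cish, a STAT5-induced member of the SOCS family, read 607 in Flox/Flox and 1044 in the KO pool, 1.72-fold higher. Dusp1, a phosphatase that turns off p38 and JNK, was 2746 and 4658, 1.70-fold higher. Each has 1 probe set. The NF-κB inhibitor Nfkbia (0.10) and Trim28 (-0.16) differed little. Among the transcription factors, the C/EBP family member Cebpa (0.02) and the hepatocyte nuclear factor Hnf4a (-0.11) hardly differed. Higher were Onecut1 (1.75-fold, 247 against 433, with 0.33 in its other probe set), Myc (1.65-fold, 327 against 538) and Atf3 (77.7 against 120, near the floor), and Fos was lower (177 against 115, 1.53-fold). Fos, Atf3, Myc and Dusp1 are the early-response genes past 1.5-fold here, and they did not share a direction. Jun (0.25), Zfp36 (0.36), Junb (-0.13) and Egr1 (-0.03), of the same kind and named after their values were seen, lay within 1.5-fold.

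Downstream, the list of STAT3 and acute-phase targets lay on the low side. Of 37 measured targets, 32 were on the low side of 0, 8 of them by 1.5-fold or more, and none was 1.5-fold higher. Their median was -0.16, against 0.00 over all measured genes, of which 3.14% were lower by 1.5-fold or more. The targets were listed with earlier results of the same arrays known, so their count is no independent evidence of a direction. Lcn2, the siderophore-binding lipocalin-2, was lowest (4028 against 938), followed by Saa3 (2528 against 760), Orm2 (3081 against 1132) and Saa2 (29910 against 13055), which encode serum amyloid A proteins and an orosomucoid of the acute phase. Orm3, Tifa, Cxcl1 and Saa1, named after their values were seen to complete the 8, were the other 4. The brightest targets, Fgb for a fibrinogen chain (-0.14) and Hamp for the iron hormone hepcidin (-0.07), differed little. Of the 37 targets, 29 lay within 1.5-fold, as did the member receptors and C/EBP factors. Probes for Saa and Orm genes may bind their paralogs, so each single value is uncertain.

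**Figure D4:**
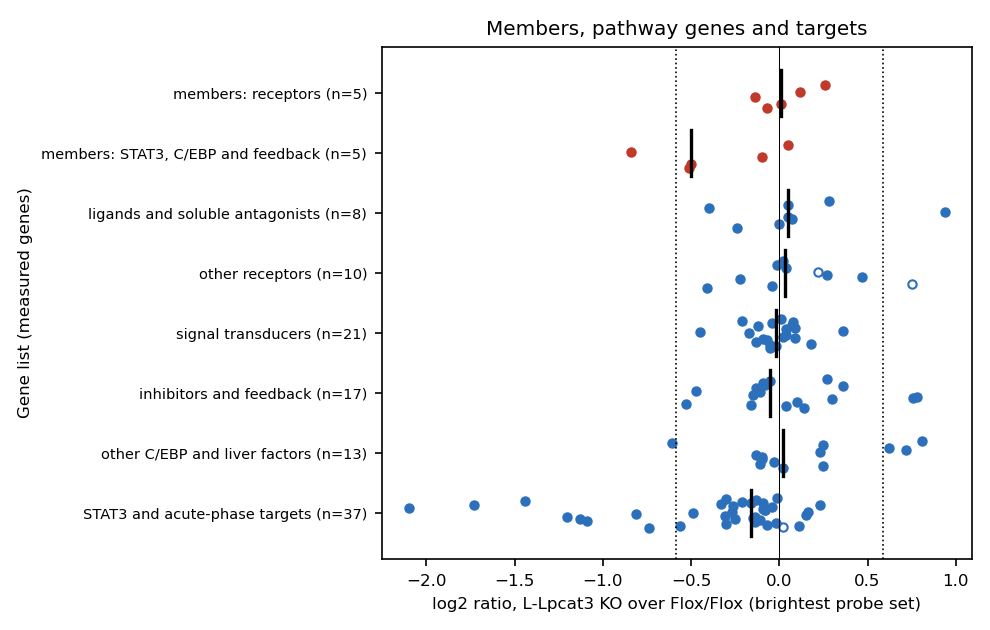
Difference in log2 signal between the KO and Flox/Flox pools (x axis) by brightest probe set for the members (red), the pathway lists and the targets (blue), with a point for each measured gene; open points are bounds set by the floor, black bars are medians and dotted lines mark 1.5-fold. The receptors have a median of 0.01 and the targets of -0.16, with a tail of 8 genes down to -2.10.

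Cell type markers and the deleted gene bear on these values. Lpcat3 read 3310 in Flox/Flox and 1305 in the KO pool, 2.54-fold lower. Its 1 probe set may read RNA outside the deleted part. From real-time PCR, the paper gives liver cells that do not express Cre as the likely source of the remaining Lpcat3 RNA. It also reports that most Lpcat3 RNA was lost in primary hepatocytes. Hepatocyte markers were close in both pools (median -0.02, all 10 within 1.5-fold), with Apoa1 at -0.05 and Serpina1b at -0.02. Their median signals were 40269 in Flox/Flox and 40266 in the KO pool. Of all measured probe sets above 585, 98.3% lay within 1.5-fold, so closeness is common at such signals. Kupffer cell and macrophage markers had a median of -0.30, against 0.00 over all measured genes. All 15 were below 0 (-0.06 to -0.54), none past 1.5-fold. Their summed signal was 17431 in the Flox/Flox pool and 14733 in the KO pool, and all 15 were above the floor in both pools, Csf1r (-0.08) and Mpeg1 (-0.39) being the brightest. Of 11 neutrophil markers with a probe set, 7 were measured. Mpo and Prtn3 were above the floor in both pools (124 against 80.1 and 271 against 81.1), Csf3r, named after its value was seen, was at least 1.57-fold higher, and Camp, Ltf, Cxcr2 and Mmp8 did not reach the floor in either pool. The other measured ones, S100a8 (-0.15), S100a9 (-0.10), Elane (-0.12) and Ngp (0.18), were at the floor in 1 pool, so their ratios are bounds. The summed signal of all 11 was 839 against 649, a fall about the size of that of Prtn3 alone. The part of these cells in the values of Steap4, Stat3 and the targets was not tested.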

How the data were processed

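Liver RNA of 5 mice per genotype was pooled, labelled and hybridized to Affymetrix mouse arrays by the authors, 1 array per genotype. The deposited values are MAS5 signal intensities per probe set per the submitters' processing notes; no software version is stated in the sources, and GeneSpring GX is the analysis program of the methods. The mean of each array without its lowest and highest 2% was 500.0, so both had been scaled alike before deposit. Arrays have no counts, and their number limits the precision.

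Gene names come from the platform annotation, brought up to date through gene IDs (RefSeq, GRCm38.p6); no build is named in the files, so probe sets have no coordinates here. Of 45037 probe sets that are not controls, 34945 had 1 gene, 932 several and 9160 none, and only the first were used by name. Ratios are differences in log2 signal after the floor, KO minus Flox/Flox. A gene takes its brightest probe set by mean log2 signal. Differences were counted at 1.5-fold and 2-fold and no test was run. The rule for named genes was all members, the 2 brightest of each list and, for pathway lists, up to 4 with the largest ratios past 1.5-fold. It was not carried through for the lymphocyte, endothelial, stellate and bile duct lists. Other genes are named outside this rule, after their values were seen. Members, lists and thresholds were chosen with earlier results of these data known. The 20 genes of other tissues gauge background: 31 probe sets of 17 of them had a median signal of 13.6, with 11.3% of signals above the floor. Marker lists of lymphocytes, endothelial, stellate and bile duct cells had medians of 0.13, 0.22, 0.09 and 0.34 over 3, 11, 10 and 4 measured genes. The lymphocyte and bile duct medians rest in part on bounds set by the floor (Gzma and Ms4a1, Krt7 and Epcam). Of the bile duct genes, 3 were above 0 and 1, Sox9, was 2.08-fold lower.

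The scripts were checked on simulated arrays, with 2-fold changes planted only in bright probe sets and with small noise. That check does not cover dim probe sets near the floor. Alternatives changed the scaling (loess, quantile normalization or median centring), the floor (none, a pseudocount, or the 25th or 75th percentile) and the probe set rule (mean, or without _s_at and _x_at). The western diet arrays of the study were not used. Python 3.11.15, numpy 2.4.6, pandas 2.3.3, statsmodels 0.14.6 and matplotlib 3.10.9 were used.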

Additional observations from a re-analysis of the deposited data

How the results depend on the processing

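The ratio of each member gene kept its side of 1.5-fold under the 9 alternatives in all 89 values computed, and Steap4 ranged from -0.92 to -0.82. Stat3 ranged from -0.52 to -0.01, the latter as the mean of its probe sets and the other values between -0.52 and -0.50. Socs3 ranged from -0.51 to 0.17, the latter without _s_at and _x_at probe sets, and was -0.05 with the floor at the 75th percentile, -0.16 as the mean of its probe sets and -0.41 with a pseudocount. Scaling moved none of the counts below by over 1.5 times. The floor did. With it at the 25th percentile (22.0), 2 of 27 measured member probe sets were higher and 4 lower by 1.5-fold. At the 75th (386) there were 0 and 1, since the dimmer Steap4 probe set then gave -0.36. With no floor and no filter there were 3 and 4 of all 29, smaller shares than those of all 45037 probe sets given below. With a pseudocount, 2 were higher. Apart from the pseudocount, whose totals are not given here, the counts over all probe sets moved the same way. Pathway genes other than members and targets, 7 higher and 1 lower in the report, had 3 lower at the 25th percentile, 2 higher and 0 lower at the 75th, 5 lower with no floor, and 4 higher and 0 lower with a pseudocount. Targets had 6 to 9 genes lower and none higher under each alternative. Over all measured probe sets, 1159 higher and 897 lower became 4926 and 4140 at the 25th percentile and 100 and 109 at the 75th. With no floor they became 8595 and 7881 of 45037. Over genes, in the same order, 483 and 379 became 1768 and 1381, 57 and 59, and 2721 and 2356. No paired analysis was possible because each genotype is 1 pool. With 1 array per group, dim signals near the floor limit every count.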

Other observations

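The windows before the start sites of the STAT3 and acute-phase targets were searched with the same motifs. A STAT match was present in 6 of 33 target genes with a window (18.2%, against 8.13% of all genes) a C/EBP match in 13 (39.4%, against 10.8%) and an NF-κB match in 3 (9.09%, against 4.46%). The 5 measured targets with a STAT match, Apcs, Fga, Fgb, Hamp and Itih4, had log2 ratios from -0.26 to -0.07, none past 1.5-fold. Of the 12 measured targets with a C/EBP match, 6 were at least 1.5-fold lower (Lcn2, Orm2, Orm3, Saa1, Saa2 and Saa3), out of 8 such genes among 30 measured targets with a window. The Saa genes and the Orm genes are paralogs with related promoters and do not count as separate cases, and no test was run. The targets were listed with earlier results of the same arrays known, so these counts are no independent evidence about any motif. Whether any of these factors acted on the targets was not tested. Of the 2 measured targets with an NF-κB match, Cxcl1 had a log2 ratio of -0.81 and Fcgr4 of 0.23. The transcripts of Cebpb and Cebpd themselves were within 1.5-fold by every probe set.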
